A study of Ovis aries with 8 samples.

Results

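ATP-binding cassette (ABC) transporters are membrane pumps that use ATP to move bile salts, sterols, lipids, drug conjugates, haem intermediates and acyl-CoA esters across membranes. The ABC genes described here are the rows of the deposited gene table whose symbol begins with ABC, a subfamily letter from A to G and a digit. There were 41 such rows among 27057. They were followed in fetal sheep hepatocytes under 2 conditions. In the metformin group (n = 4 libraries) cells had been exposed for 24 h to metformin, an antidiabetic biguanide. In the basal group (n = 4 libraries) they had not. Each of 4 numbered cell preparations gave 1 metformin and 1 basal library of polyadenylated RNA. Genotype, fetal age, dose, vehicle and the animals behind each preparation are not given in the sources used here. A p-value of the paired fit below sets a change against the spread of that change over the 4 preparations, with variances moderated across genes. The 4 preparations may or may not be 4 animals.

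In liver, pumps of the canalicular membrane form bile. ABCB11 exports bile salts, ABCC2 exports bilirubin and other conjugates, ABCG2 exports urate and drugs, and the obligate partners ABCG5 and ABCG8 export sterols. ABCA1 and ABCG1 load cholesterol onto lipoproteins. ABCC pumps of the basolateral membrane return conjugates to blood. A further set works inside the cell, in mitochondria on haem and iron-sulfur cluster metabolism, in peroxisomes on fatty acyl-CoA import and in lysosomes on peptides and cobalamin. ABCE1 and the ABCF proteins carry the ATP-binding domains without membrane segments and act on ribosomes. Members were placed in these roles from such background.

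Expression was given as FPKM, a value scaled for transcript length and for the size of the library, so that levels can be set against each other between genes. The FPKM of a library summed to 1138642 to 1257764 with metformin and 1024543 to 1197321 at baseline, and 12733 to 13128 metformin and 13082 to 13293 basal genes reached 1 FPKM. The depth in reads is unknown. The 12 hepatocyte markers with a value in each library, ALB, SERPINA1 and TF among them, summed to 10907 to 26863 FPKM with metformin and 20191 to 32124 FPKM in basal libraries. Of the 13 hepatocyte markers tested 1 rose (APOB) and 8 fell, and ALB, SERPINA1, FGB and FGG did not pass the test. HNF4A and APOA1, which also stand in the regulator and sterol lists below, were among those that fell. Markers of other liver cells were present too. Endothelial markers summed to 97.6 to 335 FPKM with metformin and 113 to 442 FPKM at baseline, and 6 of 12 tested fell. Stellate and fibroblast markers summed to 794 to 2341 FPKM with metformin and 1997 to 4171 FPKM at baseline, and 9 of 11 fell. Macrophage markers summed to 1446 to 2509 FPKM with metformin and 1341 to 2758 FPKM at baseline, and 2 of 11 rose and 6 fell. Cholangiocyte markers summed to 2409.8 to 5163 FPKM with metformin and 1986 to 9336 FPKM at baseline, with TSPAN8 listed at 0 in each library and 2 of 6 tested rising and 2 falling. Erythroid markers summed to 3.87 to 63.0 FPKM with metformin and 1.86 to 74.6 FPKM at baseline, and 0 of 7 passed the test. Over all genes tested 19.8% rose and 24.1% fell. The part of these shifts in the ABC results was not tested. In bulk RNA, fewer cells of a type and less RNA per cell cannot be told apart.

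Of the 41 ABC genes, 29 reached 1 FPKM in at least 4 of the 8 libraries and were tested. With metformin 4 of these 29 rose (ABCC3, ABCC5, ABCG1 and ABCG2) and 12 fell (among them ABCA3, ABCA4, ABCA5, ABCA6, ABCB6, ABCB10, ABCC2, ABCC6, ABCD3, ABCG5 and ABCG8) at an adjusted p under 0.05 in the paired limma fit. Over all 13141 genes tested, 43.9% passed this threshold, 19.8% rising and 24.1% falling, against 13.8% and 41.4% of the tested ABC genes. The median log2 change was -0.28 for the tested ABC genes and -0.04 for all genes tested. By at least 2-fold, 3 ABC genes rose (10.3%) and 5 fell (17.2%), beside 4.42% and 5.48% of all genes tested. The 4 metformin values lay above the 4 basal values for 3 ABC genes and below them for 10, which is 10.3% and 34.5% of those tested, against 13.3% and 12.6% of all genes tested. The metformin library was the higher one in all 4 preparations for 7 ABC genes and the lower one for 14 (24.1% and 48.3%), beside 28% and 32.2% of all genes tested. Of the tested members, 5 (ABCA4, ABCB9, ABCC2, ABCC6 and ABCG5) reached 1 FPKM in fewer than 4 metformin libraries and passed the filter through their basal levels, so the counts of falls are a description of the genes that passed it. Without preparation 1 the fall of 9 ABC genes passed, and without the preparation block the fall of 7.

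The summed FPKM of the 41 ABC genes overlapped between groups. It was 694, 686, 709 and 669 FPKM in metformin libraries of preparations 1 to 4 and 688, 634, 664 and 696 FPKM in their basal libraries. ABCG2 held the largest share of it, 21.6% to 27.9% with metformin and 15.7% to 22.3% at baseline. In mean FPKM it stood first and ABCF1 second in both groups. Below them the order differed: ABCC5 stood at rank 3 with metformin and rank 14 at baseline, whereas ABCA6 stood at rank 16 with metformin and rank 3 at baseline. ABCC3 stood at rank 7 with metformin and rank 16 at baseline. The plot of FPKM by library gives these levels for the tested members.

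**Figure D1:**
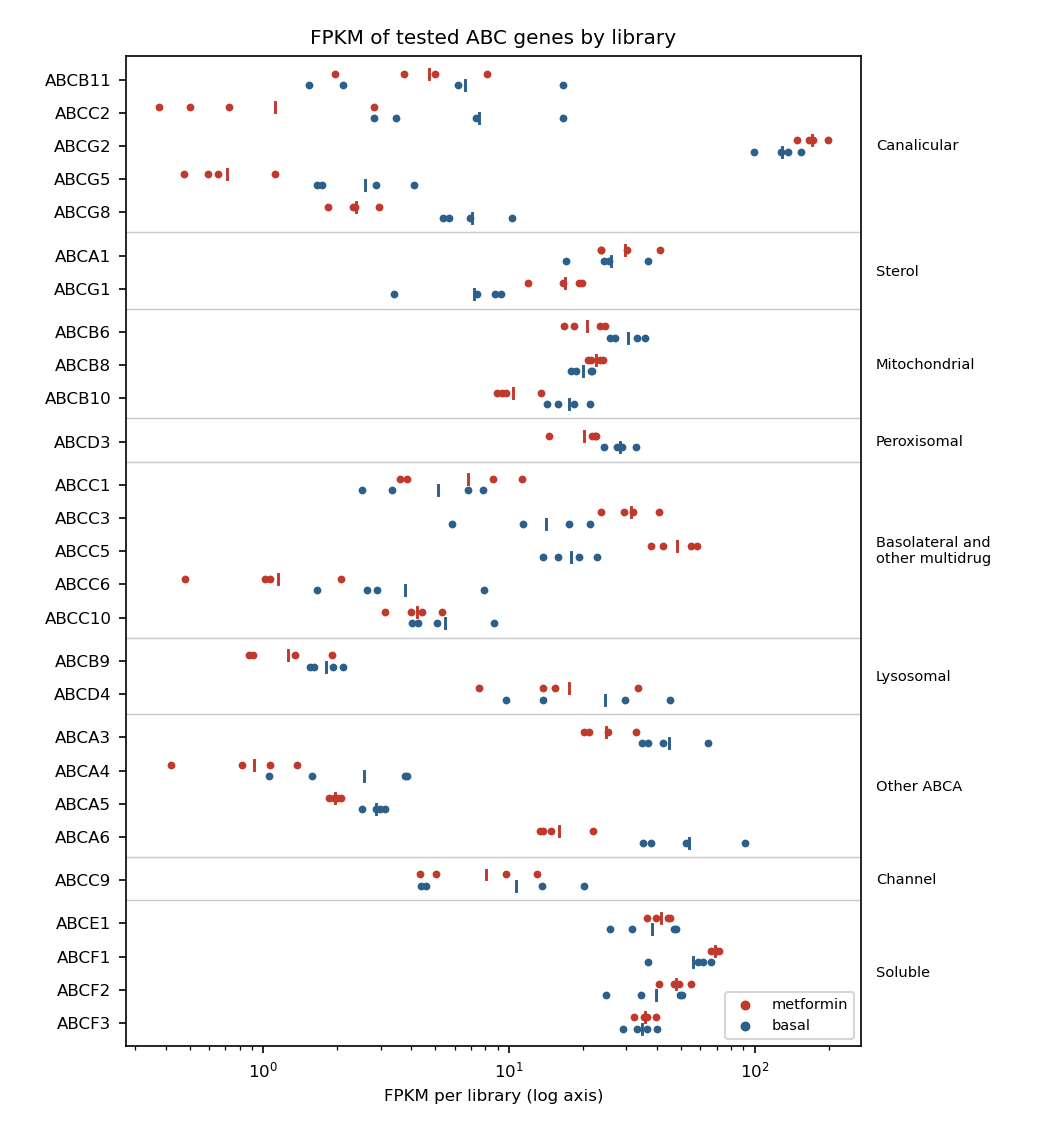
FPKM on a log axis (horizontal) of 27 tested ABC genes (rows, by role), with a point for each of 4 metformin and 4 basal libraries and a tick at each group mean. ABCG2 is highest, and the metformin points of ABCC3, ABCC5 and ABCG1 lie to the right of, and those of ABCA3, ABCA6, ABCG5 and ABCG8 to the left of, their basal points. ABCG5 and ABCG8 are drawn with the canalicular pumps and also belong to the sterol group.

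The 5 canalicular pumps measured did not move together: 3 fell (ABCC2, ABCG5 and ABCG8), 1 rose (ABCG2) and ABCB11 did not pass the test. Their median log2 change was -1.03, with preparation medians of -1.27, -0.94, -0.72 and -0.84. ABCC2 gave 0.723, 2.83, 0.377 and 0.504 FPKM in metformin libraries of preparations 1 to 4, against 7.33, 16.5, 3.45 and 2.83 FPKM in basal libraries. The groups met at 2.83 FPKM, where the metformin library of preparation 2 stood just under the basal library of preparation 4. Within a preparation the metformin level of ABCC2 was 0.0985 to 0.178 times the basal level. Its log2 change on the FPKM + 1 scale, which understates the change of low genes, was -1.88 ± 0.18 (SE, 4 of 4 preparations lower, limma adjusted p = 0.00101). This was the largest fall among the tested ABC genes. ABCC2 reached 1 FPKM in 1 metformin library and in 4 basal libraries, so it passed the filter through its basal level. Its rank thus only describes the genes that passed.

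ABCG5 gave 1.11, 0.597, 0.653 and 0.476 FPKM with metformin, against 4.09, 2.88, 1.73 and 1.65 FPKM at baseline. ABCG8 gave 2.32, 2.36, 2.96 and 1.83 FPKM with metformin, against 10.3, 5.40, 5.68 and 6.96 FPKM at baseline. For both genes the groups did not overlap and each preparation was lower with metformin. The log2 change was -1.03 ± 0.16 for ABCG5 (SE, limma adjusted p = 0.00327) and -1.24 ± 0.19 for ABCG8 (SE, limma adjusted p = 0.00338). With a pseudocount of 0.1 that of ABCG5 was -1.69. ABCG5 passed the filter through its basal level. The metformin level was 0.207 to 0.377 times the basal level for ABCG5 and 0.225 to 0.521 times for ABCG8. ABCG8 stayed the higher of the pair, at 2.10 to 4.53 times the FPKM of ABCG5 with metformin and 1.88 to 4.22 times at baseline. Both genes are direct neighbours in the RefSeq annotation of another sheep assembly (ARS-UI_Ramb_v3.0), where their models overlap. Whether counting used strand was not given in the sources used here, so fragments from such an overlap could not be told apart.

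ABCG2 gave 173, 149, 198 and 166 FPKM with metformin, against 128, 99.5, 136 and 155 FPKM at baseline. It was higher with metformin in each preparation, although the groups overlapped, and its log2 change was 0.41 ± 0.12 (SE, limma adjusted p = 0.0283). Its adjusted p was 0.1 without preparation 1, 0.0788 without preparation 2, 0.0910 without preparation 3 and 0.111 without the block. ABCB11 gave 4.98, 8.14, 3.73 and 1.95 FPKM with metformin, against 6.21, 16.6, 1.53 and 2.10 FPKM at baseline. It was lower in preparations 1, 2 and 4 and higher in preparation 3, and its log2 change of -0.10 had a 95% interval of -0.74 to 0.55 (limma adjusted p = 0.790). The interval reaches well to both sides of 0, so a rise or a fall of ABCB11 could have been missed. ABCB1 and ABCB4, other canalicular pumps, were not analysed here.

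**Figure D2:**
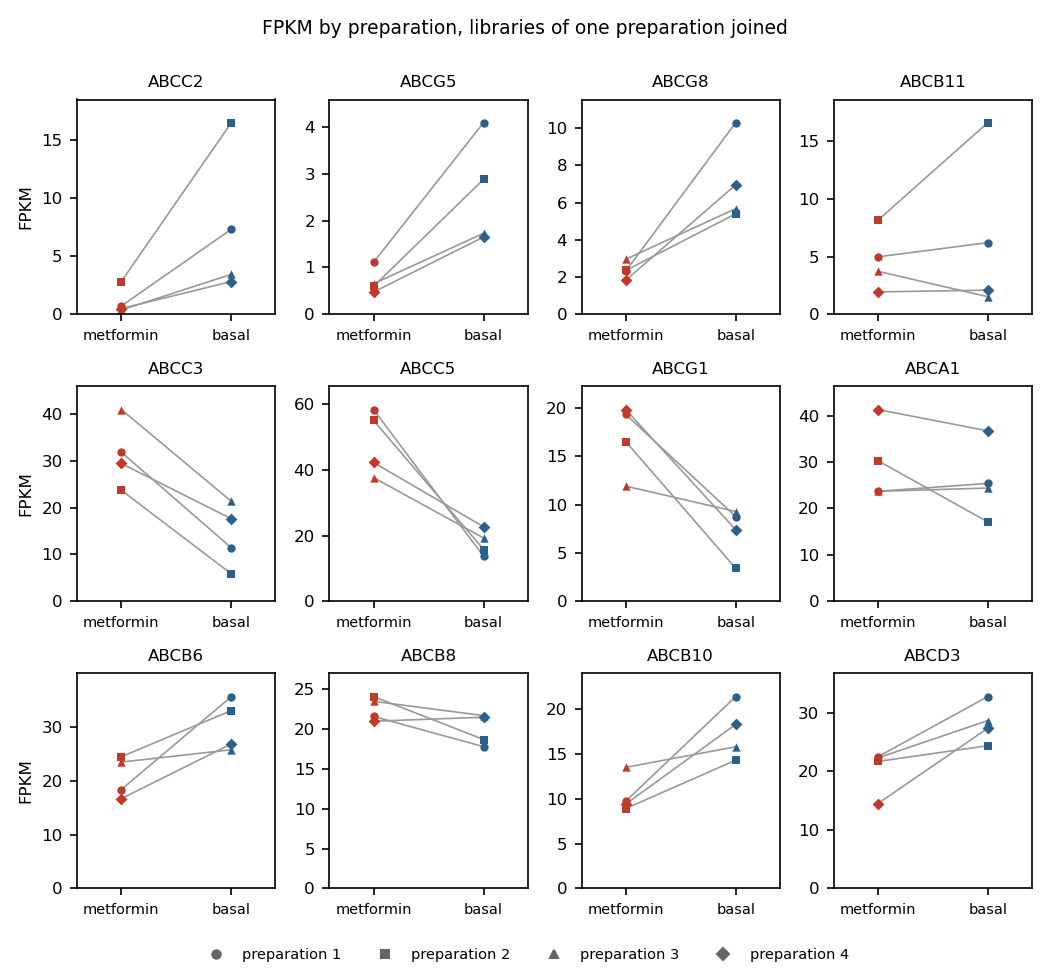
FPKM (vertical, from 0) of 12 ABC genes, with the metformin and basal library of each preparation joined by a line and marked by its symbol. The lines of ABCC2, ABCG5, ABCG8, ABCB6, ABCB10 and ABCD3 run to lower metformin values in all 4 preparations, those of ABCC3, ABCC5 and ABCG1 to higher ones, and those of ABCB8, ABCB11 and ABCA1 in both directions.

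The sterol transporters did not move together. Of 4 tested, ABCG1 rose, ABCG5 and ABCG8 fell as given above, and ABCA1 did not pass. ABCG1, which moves cholesterol towards high-density lipoprotein, gave 19.3, 16.5, 11.9 and 19.8 FPKM with metformin, against 8.75, 3.41, 9.27 and 7.39 FPKM at baseline. The groups did not overlap, and the metformin level was 1.28 times the basal level in preparation 3 and 4.84 times in preparation 2. The log2 change of ABCG1 was 1.17 ± 0.25 (SE, 4 of 4 preparations higher, limma adjusted p = 0.00964).

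ABCA1, which hands cholesterol to apolipoprotein A-I, gave 23.7, 30.3, 23.7 and 41.3 FPKM with metformin, against 25.4, 17.1, 24.4 and 36.7 FPKM at baseline. It was higher in 2 preparations and lower in the other 2, with a log2 change of 0.20 (95% interval -0.18 to 0.59, limma adjusted p = 0.340). The FPKM of ABCG1 was 0.480 to 0.815 times that of ABCA1 in metformin libraries and 0.199 to 0.379 times in basal libraries, without overlap. The median log2 change of the sterol group, -0.41, lies between genes that moved in opposite directions. ABCG4, a sterol exporter known from brain, stayed at or below 0.0361 FPKM with metformin and 0.0535 FPKM at baseline and was not tested.

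Of the ABCC exporters outside the canalicular set, ABCC3 and ABCC5 rose, ABCC6 fell, and ABCC1 and ABCC10 did not pass. ABCC3, the basolateral pump for glucuronides, gave 31.8, 23.7, 40.9 and 29.4 FPKM with metformin, against 11.4, 5.85, 21.3 and 17.6 FPKM at baseline. ABCC5, an exporter of cyclic nucleotides and other organic anions, gave 58.4, 55.1, 37.7 and 42.3 FPKM with metformin, against 13.7, 15.8, 19.3 and 22.7 FPKM at baseline. Neither gene's groups overlapped. The log2 change was 1.22 ± 0.19 for ABCC3 (SE, limma adjusted p = 0.00377) and 1.39 ± 0.21 for ABCC5 (SE, limma adjusted p = 0.00329), the largest rise among the tested ABC genes. The metformin level was 1.67 to 4.05 times the basal level for ABCC3 and 1.87 to 4.28 times for ABCC5. For both genes the ratio was larger in preparations 1 and 2 than in preparations 3 and 4.

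ABCC2 and ABCC3 export overlapping conjugates across opposite membranes of the hepatocyte. ABCC3 was higher and ABCC2 lower with metformin in each preparation. The ratio of their FPKM therefore had to shift in each, and it restates these changes. The FPKM of ABCC3 was 44.0, 8.38, 108 and 58.3 times that of ABCC2 in metformin libraries of preparations 1 to 4, against 1.56, 0.354, 6.18 and 6.23 times in basal libraries. In the metformin libraries of preparations 1, 3 and 4 ABCC2 was below 1 FPKM, so those ratios rest on a low divisor. ABCC2 was the higher of the pair in the basal library of preparation 2 and in no other library.

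ABCC6, a liver gene linked to ATP release whose loss in people causes ectopic calcification, gave 1.01, 2.07, 1.06 and 0.477 FPKM with metformin, against 2.91, 7.90, 2.65 and 1.65 FPKM at baseline. The groups overlapped, preparation 2 was highest in both, and each preparation was lower with metformin (log2 change -1.04 ± 0.16, SE, limma adjusted p = 0.00353, and 0.0890 without the block). ABCC6 passed the filter through its basal level. ABCC1, an exporter of glutathione conjugates, gave 3.59, 3.83, 11.3 and 8.56 FPKM with metformin, against 3.33, 2.53, 7.81 and 6.81 FPKM at baseline. It was higher with metformin in 4 of 4 preparations but did not pass the test (log2 change 0.33, 95% interval 0.04 to 0.62, limma adjusted p = 0.0671). Its adjusted p was 0.0481 with median of ratios scaling and 0.0116 with quantile normalization. ABCC10 averaged 4.23 ± 0.926 FPKM with metformin and 5.50 ± 2.16 FPKM at baseline (SD, n = 4 each), with a log2 change of -0.28 (95% interval -0.60 to 0.05, limma adjusted p = 0.137). ABCC4 was not analysed here.

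Of the mitochondrial members described here, ABCB6 and ABCB10 fell and ABCB8 did not pass. ABCB10, an inner membrane transporter needed for haem synthesis, gave 9.72, 8.91, 13.5 and 9.40 FPKM with metformin, against 21.4, 14.3, 15.8 and 18.3 FPKM at baseline. ABCB6, a porphyrin transporter reported in mitochondria and in other membranes, gave 18.4, 24.5, 23.5 and 16.7 FPKM with metformin, against 35.7, 33.1, 25.8 and 26.9 FPKM at baseline. The groups did not overlap for either gene, and the change of both was smallest in preparation 3, at 0.853 times the basal level for ABCB10 and 0.911 times for ABCB6. The log2 change was -0.70 ± 0.16 for ABCB10 (SE, limma adjusted p = 0.0120) and -0.53 ± 0.15 for ABCB6 (SE, limma adjusted p = 0.0249). The adjusted p of ABCB6 was 0.104 without preparation 1, 0.0561 without preparation 2, 0.0835 without preparation 4, 0.0619 without the block and 0.0591 without a filter.

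ABCB8, an inner membrane protein, gave 21.6, 24.1, 23.5 and 21.0 FPKM with metformin, against 17.8, 18.7, 21.7 and 21.5 FPKM at baseline, with a log2 change of 0.17 (95% interval -0.09 to 0.44, limma adjusted p = 0.239). It was higher with metformin in 3 of 4 preparations and the groups overlapped. ABCB8 varied little between preparations, its highest library being 1.15 times the lowest with metformin and 1.22 times at baseline.

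The intervals of ABCB6 (-0.88 to -0.18) and ABCB10 (-1.07 to -0.33) did not meet that of ABCB8 on the log2 scale. The difference between these genes was not tested. Over the same libraries the list of haem and iron-sulfur genes had 3 of 19 tested members rise and 8 fall, with a median log2 change of -0.25, beside 19.8% rising and 24.1% falling among all genes tested. ALAD, an early enzyme of haem synthesis, averaged 32.6 ± 26.8 FPKM with metformin and 84.8 ± 46.8 FPKM at baseline (SD, n = 4 each; log2 change -1.51, limma adjusted p = 0.00123). CIAO1, a cytosolic iron-sulfur assembly protein, averaged 10.9 ± 1.92 FPKM with metformin and 20.6 ± 1.10 FPKM at baseline (log2 change -0.87, limma adjusted p = 0.00352). SLC25A37, the mitochondrial iron importer, was among the genes that rose (0.62, limma adjusted p = 0.00521). NFS1, the cysteine desulfurase of iron-sulfur assembly, fell by 0.77 (limma adjusted p = 0.00623) and was chosen after its value was seen.

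The peroxisomal importer ABCD3 fell. ABCD3, which takes in branched-chain acyl-CoA and bile acid intermediates, gave 22.5, 21.7, 22.3 and 14.5 FPKM with metformin, against 32.8, 24.4, 28.7 and 27.4 FPKM at baseline. The groups did not overlap, and the metformin level was 0.527 to 0.891 times the basal level. The log2 change was -0.48 ± 0.14 (SE, 4 of 4 preparations lower, limma adjusted p = 0.0296). The adjusted p of ABCD3 was 0.0965 without preparation 1, 0.0529 without preparation 3, 0.0971 without preparation 4, 0.0842 without the block and 0.0632 without a filter.

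ABCD2, a peroxisomal relative of ABCD3, was at or below 0.0308 FPKM with metformin and 0.0405 FPKM at baseline and was not tested. Of 23 other peroxisomal genes, for assembly and for fatty acid oxidation, 4 rose and 12 fell, with a median log2 change of -0.38, where 19.8% of all genes tested rose and 24.1% fell. The 3 with the lowest p all fell: EHHADH by 1.42, catalase (CAT) by 1.37 and ACOX2, the branched-chain acyl-CoA oxidase, by 2.45 on the log2 scale (limma adjusted p = 0.000701, 0.000976 and 0.00141). PEX3 and PEX19, which bring membrane proteins such as ABCD3 to peroxisomes, had log2 changes of -0.43 (limma adjusted p = 0.0191) and -0.14 (limma adjusted p = 0.407), and were chosen after their values were seen.

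**Figure D3:**
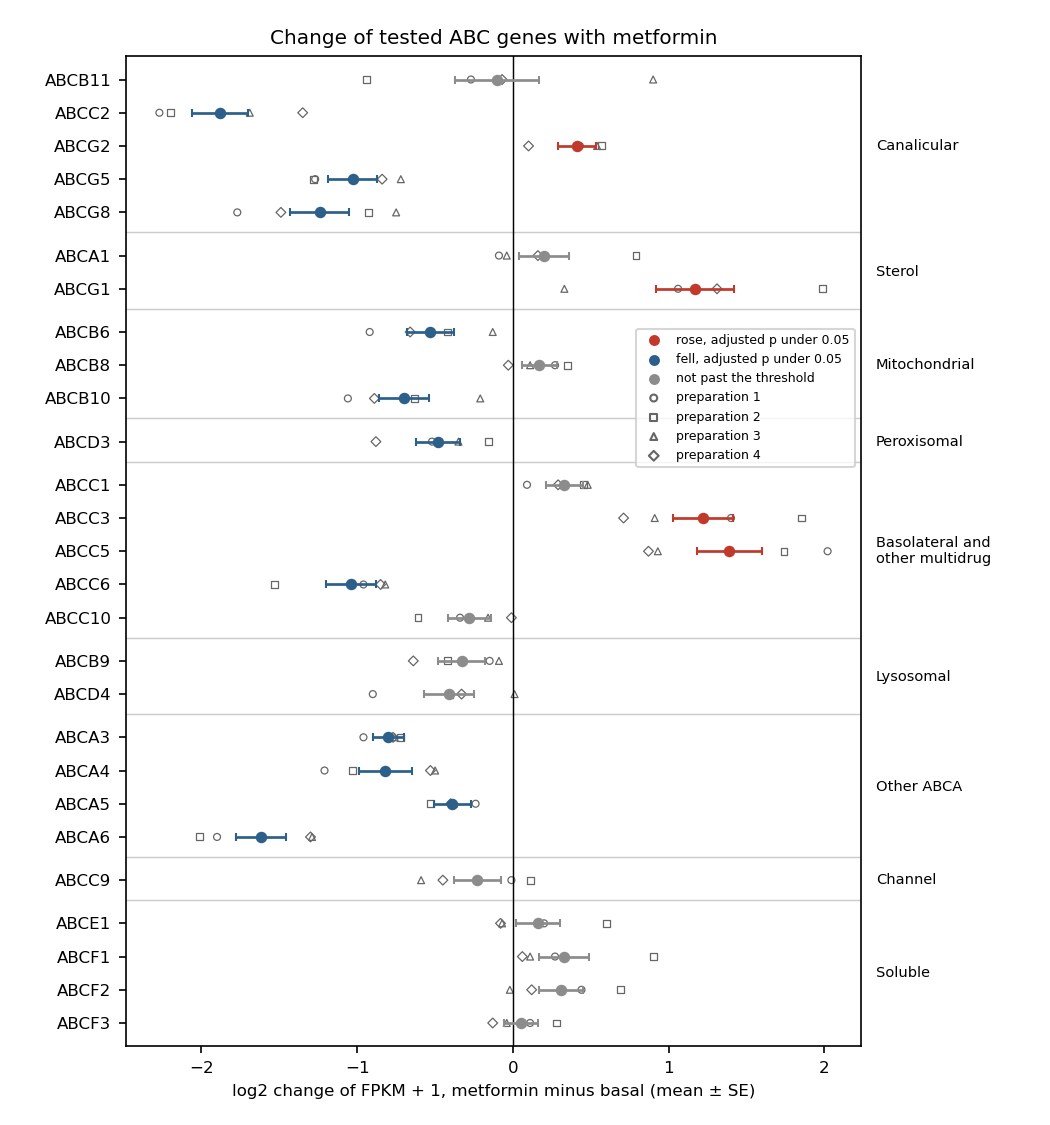
Log2 change of FPKM + 1, metformin minus basal (horizontal), of 27 tested ABC genes (rows, by role). Filled points with bars are the limma estimate ± SE, coloured by whether the gene rose, fell or did not pass, and open symbols are the 4 preparations. ABCC2, ABCA6 and ABCG8 lie farthest to the left, and ABCC5, ABCC3 and ABCG1 farthest to the right.

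Of the 9 remaining ABCA lipid transporters, 4 were tested and all 4 fell, where 24.1% of all genes tested fell. ABCA4 among them passed the filter through its basal level. ABCA6, a liver gene of a cholesterol-responsive ABCA cluster in people, gave 13.3, 22.0, 13.7 and 14.8 FPKM with metformin, against 52.5, 91.4, 35.0 and 37.8 FPKM at baseline. The groups did not overlap and the log2 change was -1.62 ± 0.16 (SE, 4 of 4 preparations lower, limma adjusted p = 0.00100). The metformin level of ABCA6 was 0.241 to 0.392 times the basal level. ABCA3, the phospholipid transporter of lung surfactant, gave 32.8, 25.3, 20.1 and 21.1 FPKM with metformin, against 64.8, 42.4, 34.7 and 36.6 FPKM at baseline. Its ratio was much the same in each preparation, 0.507 to 0.596, and its log2 change was -0.80 ± 0.10 (SE, limma adjusted p = 0.00185).

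ABCA4, known from retinoid clearance in photoreceptors, gave 1.06, 1.37, 0.820 and 0.422 FPKM with metformin, against 3.77, 3.85, 1.57 and 1.05 FPKM at baseline. The groups overlapped, each preparation was lower with metformin, and the log2 change was -0.82 ± 0.17 (SE, limma adjusted p = 0.00939, and 0.109 without the block). With a pseudocount of 0.1 it was -1.29. ABCA5, a lipid transporter described here with the ABCA genes, gave 1.99, 1.85, 2.06 and 1.93 FPKM with metformin, against 2.52, 3.13, 2.98 and 2.86 FPKM at baseline. The groups did not overlap and the log2 change was -0.39 ± 0.12 (SE, limma adjusted p = 0.0413), a call that ended on leaving out any 1 preparation (adjusted p 0.0820 to 0.131), without the block (0.0820), without a filter (0.0521), with median of ratios scaling (0.0505) and with quantile normalization (0.327).

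Neither ABCD4 nor ABCB9, the tested members of the lysosomal group, passed. ABCD4, which takes part in cobalamin release, gave 15.4, 33.6, 13.8 and 7.52 FPKM with metformin, against 29.6, 45.0, 13.7 and 9.72 FPKM at baseline. It was lower in preparations 1, 2 and 4 and nearly equal in preparation 3 (log2 change -0.41, 95% interval -0.78 to -0.04, limma adjusted p = 0.0716, and 0.0369 without preparation 3). ABCB9, a peptide transporter, averaged 1.26 ± 0.486 FPKM with metformin and 1.79 ± 0.265 FPKM at baseline (SD, n = 4 each; log2 change -0.33, 95% interval -0.68 to 0.03, limma adjusted p = 0.115). ABCA2, of the same group, was listed at 0 in each library and was not tested.

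The soluble ribosome factors ABCE1, ABCF1, ABCF2 and ABCF3 were among the 7 highest ABC genes in both groups and none passed the test. ABCE1, which recycles ribosomes, averaged 41.5 ± 4.26 FPKM with metformin and 38.0 ± 11.1 FPKM at baseline (SD, n = 4 each). ABCF1, a translation initiation factor, gave 71.3, 69.5, 66.4 and 69.6 FPKM with metformin, against 59.0, 36.8, 61.5 and 66.6 FPKM at baseline. Its metformin values were close together and the basal library of preparation 2 stood low. The log2 changes of the 4 factors were 0.05 to 0.33, and the widest 95% interval, that of ABCF1, was -0.04 to 0.71 (limma adjusted p = 0.124).

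ABCC9, the regulatory subunit of a potassium channel of vascular and mural cells, averaged 8.02 ± 4.09 FPKM with metformin and 10.7 ± 7.64 FPKM at baseline (SD, n = 4 each). It was higher in preparations 3 and 4 than in 1 and 2 in both groups, the highest library being 3.01 times the lowest with metformin and 4.62 times at baseline (log2 change -0.23, 95% interval -0.59 to 0.12, limma adjusted p = 0.240). Stellate and fibroblast markers summed to 2008, 1839, 2341 and 794 FPKM with metformin and 2779.8, 2528, 4171 and 1997 FPKM at baseline, so preparation 3 was highest and preparation 4 lowest. Their part in ABCC9 was not tested.

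At baseline the preparations differed most for ABCB11 among the tested ABC genes, with a highest library at 4.18 times the lowest with metformin and 10.8 times at baseline. The same ratio was 7.51 with metformin and 5.84 at baseline for ABCC2, 4.34 with metformin and 4.77 at baseline for ABCC6, and 4.47 with metformin and 4.63 at baseline for ABCD4. In all 4 of these genes preparation 2 was highest in both groups. ABCC1, ABCC9 and the untested ABCA7 were higher in preparations 3 and 4 than in 1 and 2, again in both groups. Across the 29 tested ABC genes the median SD of log2(FPKM + 1) between preparations was 0.29 with metformin and 0.43 at baseline, beside 0.27 with metformin and 0.30 at baseline for all genes tested.

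The 12 untested ABC genes were low. ABCA2 and ABCB5 were listed at 0 in each library, and 8 of the 12, these included, stayed below 0.1 FPKM in each library. The nearest to the filter were ABCA7, at 0.176 to 1.20 FPKM with metformin and 0.219 to 1.11 FPKM at baseline, ABCA10, at 0.0326 to 0.820 FPKM with metformin and 0.148 to 3.20 FPKM at baseline, and ABCC11, at 0.0781 to 0.336 FPKM with metformin and 0.0827 to 1.26 FPKM at baseline. The basal highs of ABCA10, ABCC11 and ABCA9 all came from preparation 2. ABCA9 was at 0.0247 to 0.0647 FPKM with metformin and 0.0239 to 0.394 FPKM at baseline. ABCC8, ABCC12, ABCA12 and ABCA13 were among the 8 below 0.1 FPKM. Under other symbols, TAP1, the peptide transporter of antigen presentation, averaged 30.6 ± 17.3 FPKM with metformin and 49.9 ± 45.6 FPKM at baseline (SD, n = 4 each; log2 change -0.46, limma adjusted p = 0.0715), and CFTR stayed at or below 0.688 FPKM with metformin and 0.457 FPKM at baseline.

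Set side by side, the group medians of log2 change were -1.03 for the canalicular and -0.41 for the sterol members, beside -0.28 for all tested ABC genes and -0.04 for all genes tested. The canalicular median was below the sterol one in each preparation, and the sterol medians were -0.68, -0.07, -0.38 and -0.34. The canalicular median of -1.03 is the value of ABCG5, which, like ABCC2, passed the filter through its basal level. The order of these medians thus only describes the genes that passed it. The single log2 changes of ABCB6, ABCB8, ABCB10 and ABCD3 given above lay between -0.70 and 0.17, above the canalicular median. The canalicular and sterol groups share ABCG5 and ABCG8. With 5 and 4 tested members, these medians turn on single genes: a filter at a mean of 5 FPKM left 2 canalicular members (ABCB11 and ABCG2) with a median of 0.16 and 2 sterol members (ABCA1 and ABCG1) with 0.69.

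**Figure D4:**
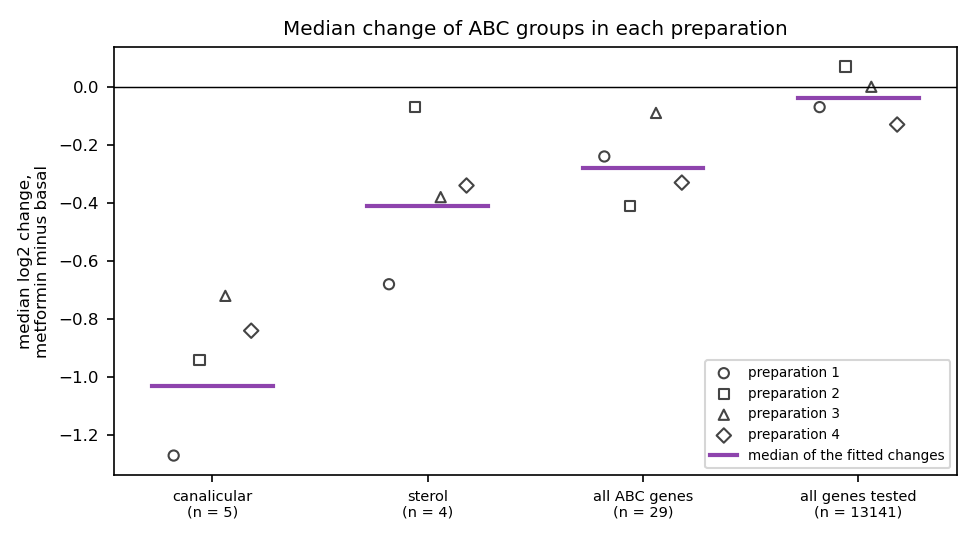
Median log2 change, metformin minus basal (vertical), of the tested members of 2 ABC groups, of all tested ABC genes and of all genes tested, with an open symbol for each preparation and a bar for the median of the fitted changes. Canalicular medians lie between -1.27 and -0.72, and the medians of all genes tested between -0.13 and 0.07.

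Of 13 tested nuclear receptors and liver factors known to act on ABC genes, 2 rose and 6 fell, while 19.8% of all genes tested rose and 24.1% fell. HNF4A, which acts on many canalicular and sterol genes in the liver, gave 9.68, 17.1, 11.6 and 8.57 FPKM with metformin, against 56.3, 84.2, 34.1 and 45.1 FPKM at baseline. PPARA, a fatty acid sensor, gave 9.83, 13.5, 11.7 and 10.6 FPKM with metformin, against 20.7, 28.9, 17.2 and 19.1 FPKM at baseline. Neither gene overlapped between groups. The log2 change was -2.10 for HNF4A (limma adjusted p = 0.000701) and -0.84 for PPARA (limma adjusted p = 0.00307).

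The remaining regulators named were chosen after their values were seen. NR5A2, a bile acid synthesis regulator, had a log2 change of -1.06 (limma adjusted p = 0.00719). The bile acid sensor FXR (NR1H4) rose, at 88.8, 72.9, 47.5 and 134 FPKM with metformin, against 40.8, 47.1, 34.7 and 49.8 FPKM at baseline (log2 change 0.89 ± 0.17, SE, limma adjusted p = 0.00728). Each preparation was higher with metformin and the groups overlapped. Its targets in textbook accounts include ABCB11, which did not pass, and NR0B2, which fell by 0.78 (limma adjusted p = 0.0258). The oxysterol sensors LXR beta (NR1H2) and LXR alpha (NR1H3), whose known targets include ABCA1, ABCG1, ABCG5 and ABCG8, moved apart: NR1H2 had a log2 change of 0.55 (limma adjusted p = 0.00785) and NR1H3 of -0.50 (limma adjusted p = 0.0359). Values at the drug sensor NR1I2, a known activator of ABCC2, were 0.206, 0.0579, 0.190 and 0 FPKM with metformin, against 2.72, 2.34, 1.32 and 0.668 FPKM at baseline. The groups did not overlap, and NR1I2 was below the filter and was not tested. Whether any of these factors acts on an ABC gene here was not tested.

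**Figure D5:**
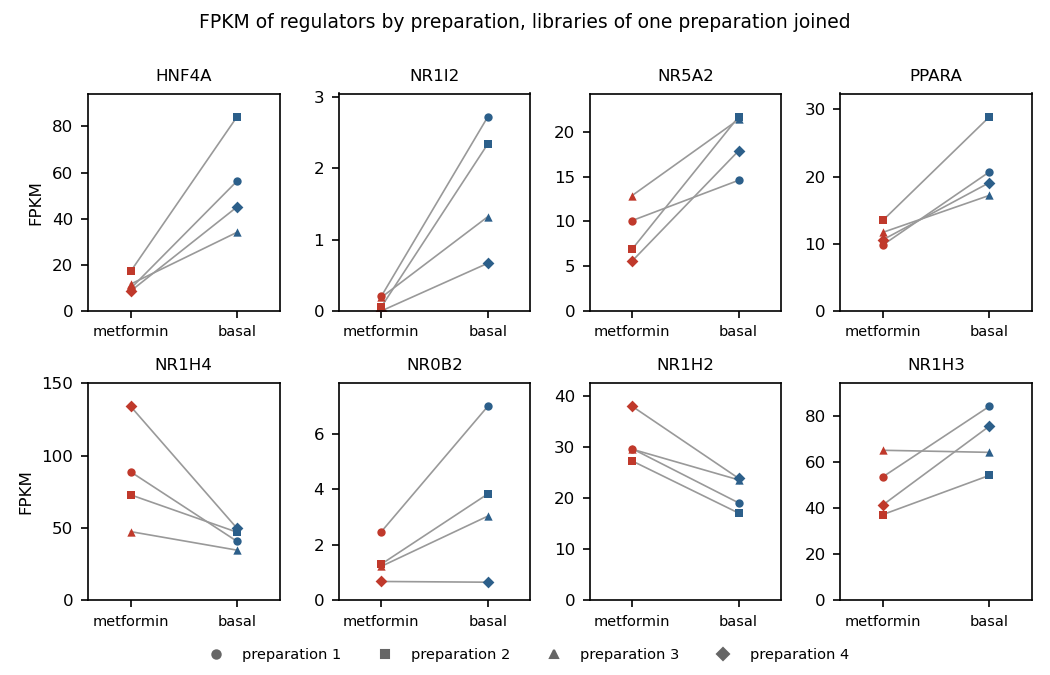
FPKM (vertical, from 0) of 8 regulators known to act on ABC genes, with the metformin and basal library of each preparation joined. HNF4A, NR1I2, NR5A2 and PPARA are lower and NR1H4 and NR1H2 higher with metformin in all 4 preparations, whereas NR0B2 and NR1H3 are lower in 3.

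Of 9 tested bile partners 3 fell and none rose, with a median log2 change of -0.17. Over all genes tested 43.9% passed, 24.1% by falling. SLC9A3R1, a scaffold that holds apical transporters including ABCC2 in place, averaged 102 ± 15.1 FPKM with metformin and 213 ± 33.2 FPKM at baseline (SD, n = 4 each; log2 change -1.05, limma adjusted p = 0.00200). The uptake carrier SLCO2B1 fell by 0.91 (limma adjusted p = 0.00750), and SLC51B, a subunit of the basolateral bile acid exporter, fell by 0.40 (limma adjusted p = 0.0433). The flippase ATP8B1, which protects the canalicular membrane, had a log2 change of 0.12 (limma adjusted p = 0.504) and was chosen after its value was seen. Of 13 sterol efflux partners 3 rose and 5 fell, with a median log2 change of 0.01, against 19.8% and 24.1% of all genes tested. LCAT and APOA1, the enzyme and the main protein of high-density lipoprotein, fell by 1.01 and 1.11, and INSIG1, a sterol synthesis regulator, rose by 1.53 on the log2 scale (limma adjusted p = 0.00107, 0.00164 and 0.00131).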

How the data were processed

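Polyadenylated RNA of 4 metformin and 4 basal libraries was compared. FPKM values per gene and library were deposited by the authors, made with Cufflinks on Oar_v3.1 per the submitters' processing notes. The sources used here give no aligner, annotation release or version. The authors' deposited table also holds group mean FPKM, a signed fold change (a score, as is the q-value column, where 99 fills empty cells) and a p-value. A placeholder in 4 cells, none in an ABC row, was treated as missing. Genes at 1 FPKM or more in at least 4 libraries were tested on log2(FPKM + 1), pseudocount 1, with limma 3.58.1 in R 4.3.3, preparation as a block, mean-variance trend, moderated variances (prior df 4), 2-sided, Benjamini-Hochberg adjustment over all 13141 genes. The code of the fit was checked on simulated data, which does not measure its error rate on these data. Pairing rests on preparation numbers in the labels, and deviations from group means correlated within the 4 pairs at r 0.489 to 0.585 across genes. Nothing says whether preparations came from separate animals. Members, roles, partner lists and marker lists were chosen with earlier results of these data known. Every ABC row is counted. Library values are given for tested canalicular, sterol, mitochondrial and peroxisomal members and for the largest other changes, and up to 3 genes of lowest p for each partner list. Library values of ABCC1, ABCD4 and ABCF1 were added after they were seen. Alternatives were other pseudocounts, filters and scalings, no block, no trend and leaving out each preparation. Counts cover all members, and 3 genes are not reported by name or value here. RefSeq names matched 39 of 41 members.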

Additional observations from a re-analysis of the deposited data

Results flagged for a closer look

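In 3 of 58 sets of 4 libraries (29 ABC genes in each group), 1 library stood far from the other 3 by Dixon's test at the 5% level, which flags about 1 set in 20 by chance. The metformin library of preparation 2 gave 22.0 FPKM for ABCA6, against 13.3 to 14.8 FPKM in the other metformin libraries, and 2.83 FPKM for ABCC2, against 0.377 to 0.723 FPKM. Both genes were also highest in the basal library of that preparation. The metformin library of preparation 4 gave 14.5 FPKM for ABCD3, against 21.7 to 22.5 FPKM in the others.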

How the results depend on the processing

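Of the 16 ABC calls, 10 held under each alternative that tested them, and those of ABCA4, ABCA5, ABCB6, ABCC6, ABCD3 and ABCG2 ended under at least 1. No called ABC gene changed direction. Leaving out each preparation in turn gave 3 to 4 ABC rises, 9 to 11 ABC falls, 1679 to 2307 rises and 1995 to 2923 falls over all genes tested. Without the preparation as a block, 3 ABC genes rose and 7 fell, and 1272 genes rose and 1246 fell over all genes tested. A mean of at least 5 FPKM left 20 ABC genes, of which 4 rose and 5 fell. Among all 10796 genes then tested, 2355 rose and 2318 fell. The other 7 ABC genes that had fallen in the main fit were not tested. The group medians of log2 change turned to 0.16 (canalicular) and 0.69 (sterol), since 2 members of each were left. Without a filter the sterol median was -0.01, as ABCG4 entered. The canalicular median was -1.51 with a pseudocount of 0.1 and -1.31 with 0.5. The median over all genes tested was -0.03 with median of ratios scaling and 0.00 with quantile normalization. Depth in reads is unknown, so no counting error could be given.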

Other observations

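The authors' deposited table gives a p-value for 39 of the 41 ABC rows, under 0.05 in 16. Of these 16, 14 passed the adjusted threshold in the fit used here. A q-value stands on 14 ABC rows, and it is under 0.05 for 5: ABCA3, ABCA6, ABCC2, ABCC3 and ABCC5. For ABCB6, ABCB10, ABCD3, ABCG1 and ABCG2, which passed the fit used here, the authors' q-value was 0.0618 to 0.0827. In the RefSeq annotation of ARS-UI_Ramb_v3.0, ABCC1 and ABCC6 are direct neighbours. With metformin the FPKM of ABCC1 was higher and that of ABCC6 lower in each of the 4 preparations. ABCA5 and ABCA10 are also direct neighbours there, and ABCA10 was higher with metformin in preparation 1 and lower in the other 3.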
